A study of Mus musculus with 8 samples.

Results

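Aminoacyl-tRNA synthetases join each amino acid to its transfer RNA, the step that supplies charged tRNA to the ribosome. One set of enzymes works in the cytosol and a second set, also encoded in the nucleus, is imported into mitochondria, where it serves the translation of the respiratory chain subunits made there. Many genes of the cytosolic set are known targets of ATF4, the transcription factor of the amino acid and endoplasmic reticulum stress response, which also induces Trib3. The genes described here are the 38 of the 34745 genes in the expression table whose symbol is that of an aminoacyl-tRNA synthetase: 21 cytosolic enzymes and subunits and 17 mitochondrial enzymes. Members were taken by name alone (one capital letter followed by ars, with or without a final digit, plus Eprs, Farsa, Farsb and Tarsl2). The mitochondrial enzymes are those whose name ends in 2, except Tarsl2, a cytosolic threonyl-tRNA synthetase-like protein. Gars and Kars were kept with the cytosolic set, although each of these genes is known to encode both the cytosolic and the mitochondrial enzyme.

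RNA-seq was done on primary hepatocytes of male wild-type mice that had been injected with adeno-associated virus 8 at 6 weeks of age and were used 4 weeks later. Of the 8 libraries, 4 came from mice given virus with mouse Trib3 (AAV-Trib3) and 4 from mice given the control virus with GFP (AAV-GFP). The labels give no strain, no promoter of the vector and no statement that each library came from a separate mouse, so every error given is the scatter among libraries, some of it perhaps technical. Total counts per library ran from 11350442 to 15361128. Trib3 stood at 27.9, 62.5, 67.1 and 20.2 CPM in AAV-Trib3 replicates 1 to 4, against 2.68, 1.10, 2.45 and 3.35 CPM in AAV-GFP (CPM here are counts scaled to library size with TMM factors). No library overlapped with the other group (exact two-sided permutation p = 0.0286, the smallest that 4 against 4 libraries allow). The hepatocyte marker list had a summed level of 69970 to 111600 CPM in AAV-Trib3 and of 71730 to 142200 CPM in AAV-GFP. Most of it was Alb, at 48590 to 84200 CPM in AAV-Trib3 and 50080 to 107500 CPM in AAV-GFP. Macrophage and Kupffer cell markers summed to between 10.4 and 96.4 CPM in AAV-Trib3 and between 8.22 and 76.9 CPM in AAV-GFP. Cholangiocyte markers summed to 7.10 to 28.1 CPM in AAV-Trib3, against 7.79 to 10.9 CPM in AAV-GFP, and 1 of them, Sox9, had an unadjusted p of 0.0162 in edgeR (adjusted p = 0.9995, log2 difference 1.18 ± 0.41, SE). Of the 5 markers listed, only Sox9 and Spp1 were expressed highly enough to be tested. Most of the sum was Spp1, at 4.76 to 23.76 CPM in AAV-Trib3 and 4.905 to 9.753 CPM in AAV-GFP. Endothelial, stellate and lymphocyte marker sums overlapped between the groups. The part of these markers in the differences below was not tested. AAV-GFP replicate 2 stood apart, with 32.0% of its counts on mitochondrially encoded genes, against 14.9% to 18.5% in the other 7 libraries.

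The known link to ATF4 makes the promoters of the family of interest. RefSeq windows from 250 bases before to 50 bases after a transcription start (GRCm38.p6) were at hand for 28 members, 14 cytosolic and 14 mitochondrial. They were searched on both strands for TGATGNAA, the core of the C/EBP-ATF response element that ATF4 binds. It was present in 5 of 14 cytosolic genes (Aars, Gars, Iars, Tars and Yars), in 0 of 14 mitochondrial genes and in 3.97% of all 32851 windows. These stretches are shown because they give a match in each of the 5 genes, with the motif in capitals. All run 5′ to 3′ along the gene's own strand, on which the motif reads TTNCATCA except in Yars.
Aars, chr8:111033840-111033869, plus strand: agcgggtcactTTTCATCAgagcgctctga
Gars, chr6:55037960-55037989, plus strand: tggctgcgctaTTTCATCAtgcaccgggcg
Iars, chr13:49682126-49682155, plus strand: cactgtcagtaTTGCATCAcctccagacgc
Tars, chr15:11399655-11399684, minus strand: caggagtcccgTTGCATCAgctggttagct
Yars, chr4:129189895-129189924, plus strand: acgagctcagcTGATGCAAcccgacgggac

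The first base of the motif lay at base 10 downstream of the RefSeq start in Aars, 30 bases upstream in Gars and 15 bases upstream in Tars. In Iars and Yars it lay just downstream of the start, at bases 8 and 4. Iars, Tars and Yars share the same 8 letters on one strand or the other (TTGCATCA, which is TGATGCAA on the opposite strand), while Gars and Aars have TTTCATCA in the stretches shown. The E-box CACGTG, a palindrome that MYC proteins bind, was in the windows of Aars, Farsb, Iars and Tars (4 of 14 cytosolic genes), of Ears2 (1 of 14 mitochondrial genes) and in 7.15% of all windows. The palindromic NRF1 site, tied to nuclear genes of mitochondrial proteins, was found in 0 of 28 members and in 0.971% of all windows. Members without a window in the table included Cars, Hars, Hars2, Lars, Nars, Pars2, Rars, Vars and Wars. Such matches describe these letters in these windows and do not show binding.

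All 38 members were expressed highly enough to be tested, so no member was lost to the filter on low counts. Cytosolic members had at least 103 counts in every library and up to 3261. Mitochondrial members had between 10 and 1003 counts, and 9 of the 17 had at least 100 in every library. Across the 8 libraries the median coefficient of variation of a member was 13.3% in the cytosolic and 16.9% in the mitochondrial set, against 21.2% over the 11036 genes tested. The counts come from whole preparations, in which fewer cells of a type and less RNA per cell cannot be told apart.

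Transcripts of the cytosolic enzymes were more abundant than those of the mitochondrial enzymes. Levels of different genes are compared here per length, in 3 ways, because the deposited FPKM (fragments scaled to gene length and library size) imply gene lengths that are mostly not those of one transcript. The length that the deposited counts and FPKM imply was between 0.658 and 4.88 times the principal protein-coding transcript of GENCODE M21, with a median of 1.97, and lay within 10% of it in 9 of 38 members. Per kilobase of that principal transcript, the cytosolic set had a median level of 11.7 CPM per kilobase (3.93 to 34.7), against 3.97 CPM per kilobase (0.367 to 11.4) in the mitochondrial set. By deposited FPKM the medians were 6.61 and 1.77, and the median over all genes tested was 2.46 FPKM. Per kilobase of all exons joined they were 8.30 and 2.33 CPM per kilobase. In each of the 8 libraries the median level of the cytosolic set per kilobase of principal transcript was above that of the mitochondrial set, by 2.78- to 3.40-fold in AAV-Trib3 and by 2.19- to 3.56-fold in AAV-GFP.

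At the top of the cytosolic set per kilobase of principal transcript were Aars, the alanyl-tRNA synthetase, at 34.7 ± 5.3 CPM per kilobase (SD, n = 8), and Nars, the asparaginyl-tRNA synthetase, at 33.3 ± 3.3 CPM per kilobase. These neighbours did not differ beyond their spread, while in deposited FPKM Nars (35.4) stood well above Aars (15.5). Dars for aspartate (28.8 ± 2.6 CPM per kilobase) and the bifunctional Eprs for glutamate and proline (28.1 ± 3.8 CPM per kilobase) followed, and also lay within their spread of each other. In deposited FPKM, Eprs (6.67) was below Dars (13.3), with an implied length of 21.1 kb against 4.91 kb for its principal transcript. Lowest were Vars for valine (4.80 ± 0.59 CPM per kilobase), Cars for cysteine (4.77 ± 1.59) and Tarsl2 (3.93 ± 0.37). Tarsl2 overlaps Tm2d3 by 923 bases on the same strand, so its reads are uncertain there. Tm2d3 averaged 160.8 counts a library against 174.5 for Tarsl2.

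Among the mitochondrial enzymes, Iars2 for isoleucine (11.4 ± 1.3 CPM per kilobase of principal transcript; SD, n = 8) and Fars2 for phenylalanine (9.41 ± 1.51) stood highest. Fars2 is a single-chain enzyme, while its cytosolic counterpart is built from the alpha subunit Farsa and the beta subunit Farsb. Farsb stood at 11.3 ± 1.6 and Farsa at 6.20 ± 0.97 CPM per kilobase of principal transcript. In deposited FPKM, Fars2 (9.52) was above both Farsb (6.51) and Farsa (1.71), so the order of Fars2 and Farsb turns with the length used. The lowest levels in the family were those of Wars2 for tryptophan (0.748 ± 0.250 CPM per kilobase), Pars2 for proline (0.521 ± 0.119) and Mars2 for methionine (0.367 ± 0.132). Mars2 has a single annotated transcript of 11.3 kb, and the deposited FPKM used the same length.

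For 14 amino acids a cytosolic gene could be paired with a mitochondrial one; for threonine this was Tars with Tars2, and Tarsl2 was left unpaired. Within libraries, the cytosolic transcript had the higher mean level in 13 of 14 pairs by deposited FPKM, in 13 of 14 per kilobase of principal transcript and in 14 of 14 per kilobase of joined exons. In 10 pairs it was higher in all 8 libraries by all 3 measures. The widest gap was that of the methionine enzymes, where Mars exceeded Mars2 by 5.26 ± 0.53 on the log2 scale per kilobase of principal transcript (SD, n = 8) and by 4.59 ± 0.53 in deposited FPKM. The size of a gap depended on the length used: Tars exceeded Tars2 by 4.18 ± 0.39 in deposited FPKM but by 1.46 ± 0.39 per kilobase of principal transcript.

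**Figure D1:**
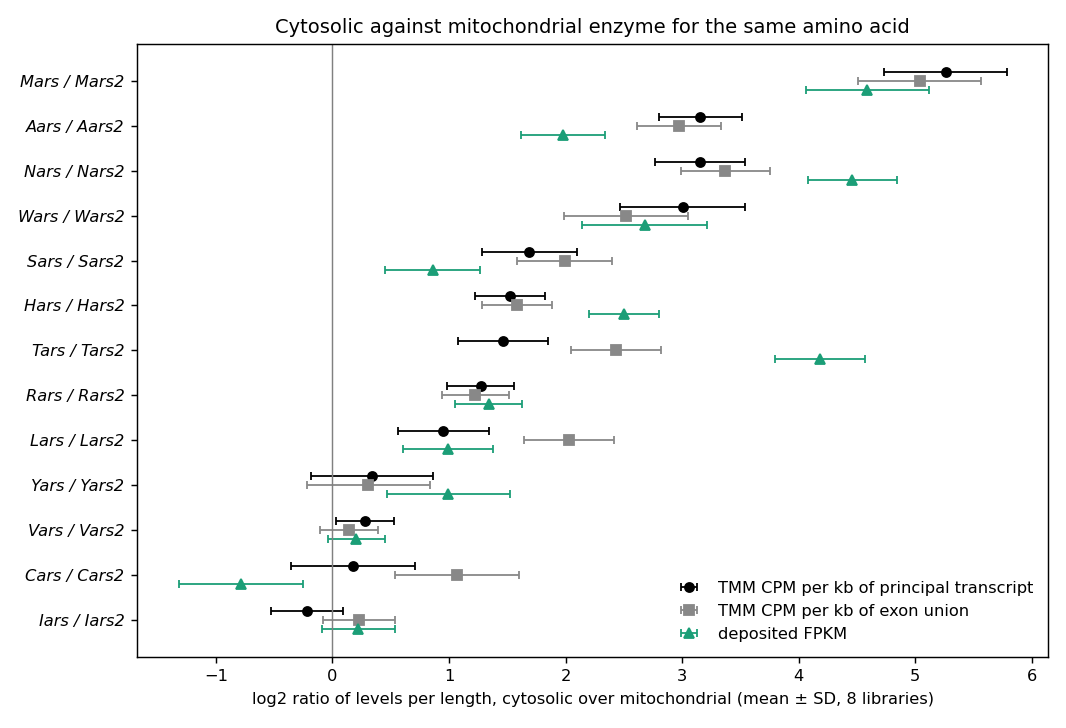
Log2 ratio of the cytosolic over the mitochondrial transcript level per length for 13 of the 14 pairs (mean ± SD over the 8 libraries), with levels taken as TMM-scaled CPM per kilobase of the GENCODE principal transcript (circles), per kilobase of joined exons (squares) or as deposited FPKM (triangles). Points right of 0 mean a higher cytosolic level; 9 of the pairs shown lie right of 0 in every library by all 3 measures, while Cars / Cars2 and Iars / Iars2 lie on different sides of 0 depending on the measure.

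The cysteine and isoleucine pairs had no direction that held for every length. Cars was below Cars2 in deposited FPKM (log2 ratio −0.79 ± 0.53; SD, n = 8) and above it per kilobase of joined exons (1.07 ± 0.53), with 0.17 ± 0.53 per kilobase of principal transcript. For Iars over Iars2 the log2 ratio was 0.22 ± 0.31 in deposited FPKM and −0.22 ± 0.31 per kilobase of principal transcript. Vars and Vars2 for valine, and Yars and Yars2 for tyrosine, lay close together by all measures other than the FPKM of the tyrosine pair, with log2 ratios of 0.28 ± 0.25 and 0.34 ± 0.53 per kilobase of principal transcript.

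The study's own comparison is AAV-Trib3 against AAV-GFP, which asks how raised Trib3 alters hepatocyte transcripts. The family was put forward with results of this comparison known, since Cars was among the genes with the smallest unadjusted p-values, so the differences below are a description and support nothing by themselves. In edgeR's quasi-likelihood test with Benjamini-Hochberg adjustment over 11036 genes, 0 of 38 members passed an adjusted p of 0.05, as did 0 genes of the table (0%), and every member had an adjusted p of 0.9995 or above. Trib3 itself, with a log2 difference of 4.175, had an edgeR adjusted p of 0.0675 and so did not pass either. A count of 0 in this test therefore does not show that nothing changed. At an unadjusted p under 0.05 there were 3 members, all lower with AAV-Trib3 (Cars, Mars and Iars), against 3.14% of all genes in either direction, 1.78% lower and 1.36% higher. DESeq2's Wald test placed 1 member past the threshold, Cars (log2 difference −0.80, adjusted p = 0.0486), and 17 genes in all. Without DESeq2's independent filtering, which drops genes of low count before adjustment, the adjusted p of Cars was 0.0812. With limma-voom, 0 genes passed.

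In the cytosolic set, 16 of 21 members had a log2 difference (AAV-Trib3 over AAV-GFP) below 0, and the median was −0.11. Mitochondrial members had 12 of 17 below 0, with a median of −0.10. Over all genes tested, 52.1% were below 0, 47.9% above it, and the median was −0.01. The medians of the 2 sets thus differed by −0.01 on the log2 scale, and this small gap turned positive in 4 of the 8 fits made with 7 libraries. The median standard error of a single gene was 0.14 in the cytosolic set and 0.18 in the mitochondrial set.

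**Figure D2:**
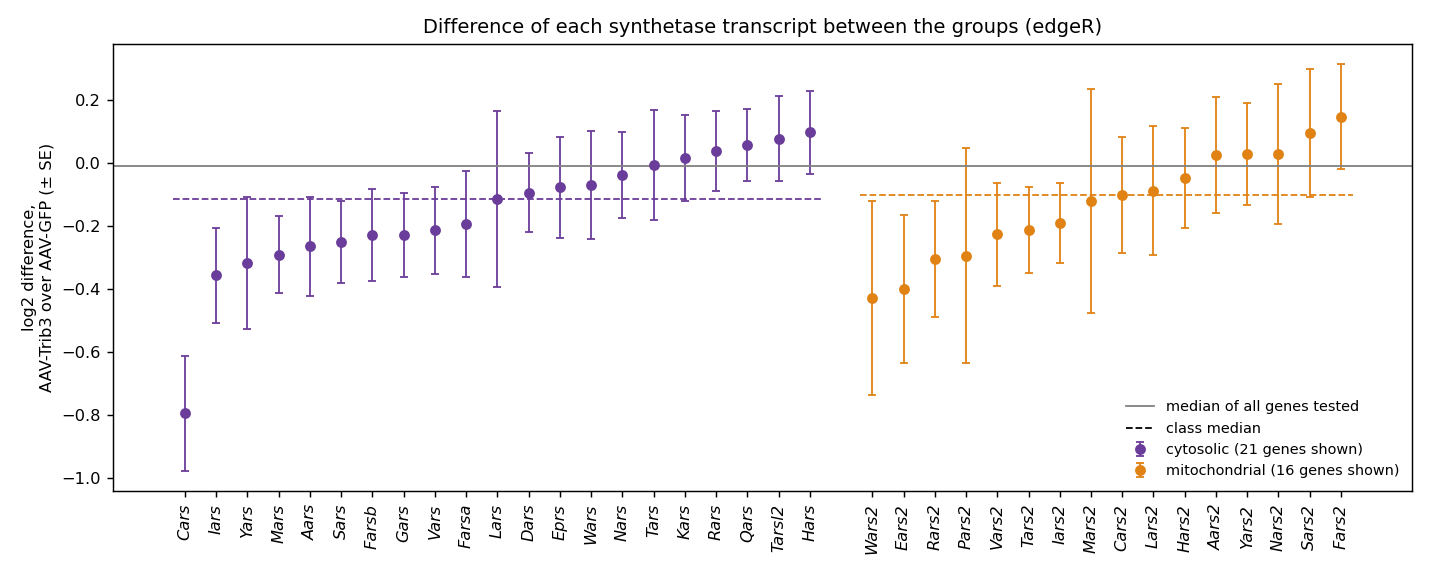
Log2 difference of each member, AAV-Trib3 over AAV-GFP, with its standard error from edgeR (4 against 4 libraries), ordered within the cytosolic (left, 21 shown) and mitochondrial (right, 16 of 17 shown) set. Dashed lines mark the medians of the full sets of −0.11 and −0.10 and the grey line the median of all genes tested, −0.01; Cars, at −0.79, stands below every other member shown.

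Cars, the cytosolic cysteinyl-tRNA synthetase (ENSMUSG00000010755, chromosome 7, 143557230 to 143600090 in mm10, minus strand, protein-coding), had 12.9, 10.4, 8.61 and 13.0 CPM in AAV-Trib3 replicates 1 to 4, against 22.9, 17.96, 15.6 and 21.5 CPM in AAV-GFP replicates 1 to 4. All 4 AAV-Trib3 libraries lay below all 4 AAV-GFP libraries. The log2 difference was −0.79 ± 0.18 (SE), a level 0.577 times that of AAV-GFP, and lay between −0.89 and −0.69 in the 8 fits made with 7 libraries. Cars2, its mitochondrial counterpart, had 7.61, 7.62, 7.46 and 7.08 CPM in AAV-Trib3, against 6.36, 10.7, 7.07 and 7.86 CPM in AAV-GFP. Its groups overlapped, and its log2 difference was −0.10 ± 0.18 (SE), or 0.07 with AAV-GFP replicate 2, the highest library, left out. Of the bases of Cars2, 940 lie opposite the gene Carkd, which averaged 466.5 counts a library against 105.2 for Cars2, and without a stated strand their reads cannot be told apart there. The ratio of Cars to Cars2, in which gene length cancels between groups, averaged −1.15 ± 0.31 with AAV-Trib3 and −0.43 ± 0.47 with AAV-GFP (log2 of deposited FPKM; SD, n = 4 each).

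Mars, the methionyl-tRNA synthetase of the cytosol, was the other member whose groups did not overlap. It had 37.9, 31.4, 35.0 and 37.2 CPM in AAV-Trib3 replicates 1 to 4 and 47.8, 39.6, 44.4 and 41.1 CPM in AAV-GFP replicates 1 to 4, a log2 difference of −0.29 ± 0.12 (SE). Groups that did not overlap, with AAV-Trib3 lower, were thus seen in 2 of 38 members, against 1.08% of all genes tested in that direction, 1.21% in the other and 2.29% in both, and this share is read no further, since the family was chosen on this comparison. Mars overlaps the stress gene Ddit3 by 68 bases on the opposite strand, and Ddit3 averaged 56.2 counts a library against 539.8 for Mars.

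Mars belongs to the multisynthetase complex, a cytosolic assembly in which Eprs, Iars, Lars, Mars, Qars, Rars, Kars and Dars are held by the scaffold proteins Aimp1, Aimp2 and Eef1e1. Of these 8 enzyme genes, 5 had a log2 difference below 0, with a median of −0.09 and a range from −0.36 to 0.06. The 13 cytosolic genes outside the complex had 11 below 0, with a median of −0.21. Iars, the isoleucyl-tRNA synthetase, was at the low end of the complex. It had 42.6, 36.3, 30.5 and 44.3 CPM in AAV-Trib3, against 49.2, 43.4, 54.9 and 49.1 CPM in AAV-GFP, a log2 difference of −0.36 ± 0.15 (SE). Only the highest AAV-Trib3 library, replicate 4, reached above the lowest AAV-GFP library, replicate 2. Qars for glutamine was at the high end (0.06 ± 0.12, or 0.0023 with AAV-Trib3 replicate 4 left out) and varied least of all members, with a coefficient of variation of 6.93% over the 8 libraries. The scaffold genes had log2 differences of 0.06 ± 0.14 (Aimp1), 0.05 ± 0.24 (Aimp2) and −0.06 ± 0.26 (Eef1e1).

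Outside the complex, Sars for serine had 34.4, 34.5, 28.9 and 35.0 CPM in AAV-Trib3, against 41.8, 32.9, 40.5 and 42.7 CPM in AAV-GFP. Apart from AAV-GFP replicate 2, every AAV-GFP library was above every AAV-Trib3 library, and the log2 difference was −0.25 ± 0.13 (SE). Aars for alanine, the member with the most counts, had 198, 183, 143 and 201 CPM in AAV-Trib3, against 246, 209.5, 227 and 188 CPM in AAV-GFP. Its groups overlapped through AAV-GFP replicate 4, with a log2 difference of −0.26 ± 0.16, or −0.17 when AAV-Trib3 replicate 3 was left out. Gars for glycine had 26.0, 25.4, 30.5 and 30.2 CPM in AAV-Trib3 and 30.3, 29.2, 38.1 and 33.6 CPM in AAV-GFP, with overlap and a log2 difference of −0.23 ± 0.13, or −0.15 when AAV-GFP replicate 3 was left out.

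Both subunits of the cytosolic phenylalanyl-tRNA synthetase had negative differences smaller than 2 standard errors. Farsb had 24.3, 19.5, 17.1 and 23.8 CPM in AAV-Trib3, against 23.3, 26.6, 26.6 and 22.8 CPM in AAV-GFP (log2 difference −0.23 ± 0.15). Farsa, the lowest cytosolic member in FPKM, had 11.3, 12.7, 8.99 and 9.31 CPM in AAV-Trib3, against 11.6, 13.0, 13.8 and 9.997 CPM in AAV-GFP (−0.19 ± 0.17). In both genes the groups overlapped. The difference of Farsb was −0.14 with AAV-Trib3 replicate 3 left out, and that of Farsa lay between −0.30 (AAV-Trib3 replicate 2 left out) and −0.12 (AAV-GFP replicate 3 left out). Vars had 14.5, 18.7, 19.3 and 21.1 CPM in AAV-Trib3 and 21.4, 22.5, 20.9 and 20.4 CPM in AAV-GFP, a log2 difference of −0.21 ± 0.14, or −0.11 when AAV-Trib3 replicate 1, the lowest library, was left out. Nars, the highest member in FPKM, had 90.1, 94.2, 80.1 and 96.1 CPM in AAV-Trib3, against 95.0, 75.0, 99.9 and 99.9 CPM in AAV-GFP. Its groups overlapped and its log2 difference of −0.04 ± 0.14 changed sign when AAV-Trib3 replicate 3 or AAV-GFP replicate 3 was left out. The remaining 11 cytosolic members, Qars included, ranged from −0.32 ± 0.21 (Yars) to 0.10 ± 0.13 (Hars). Yars was at −0.13 with AAV-Trib3 replicate 3 left out, and Hars at 0.0077 with AAV-GFP replicate 2 left out. Hars and Hars2 overlap by 198 bases on opposite strands, so their reads are uncertain there.

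The 5 genes with the C/EBP-ATF motif shown above had log2 differences of −0.36 (Iars), −0.32 (Yars), −0.26 (Aars), −0.23 (Gars) and −0.01 (Tars), a median of −0.26. Single libraries moved several of these values. With AAV-Trib3 replicate 3 left out, Yars was at −0.13 and Aars at −0.17, and with AAV-GFP replicate 3 left out, Gars was at −0.15 and Tars at 0.18. The 9 other cytosolic genes with a promoter window had a median of −0.09 and ran from −0.29 to 0.08, with 6 below 0. These ranges overlap, and Cars, the gene with the most negative difference, had no window.

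**Figure D3:**
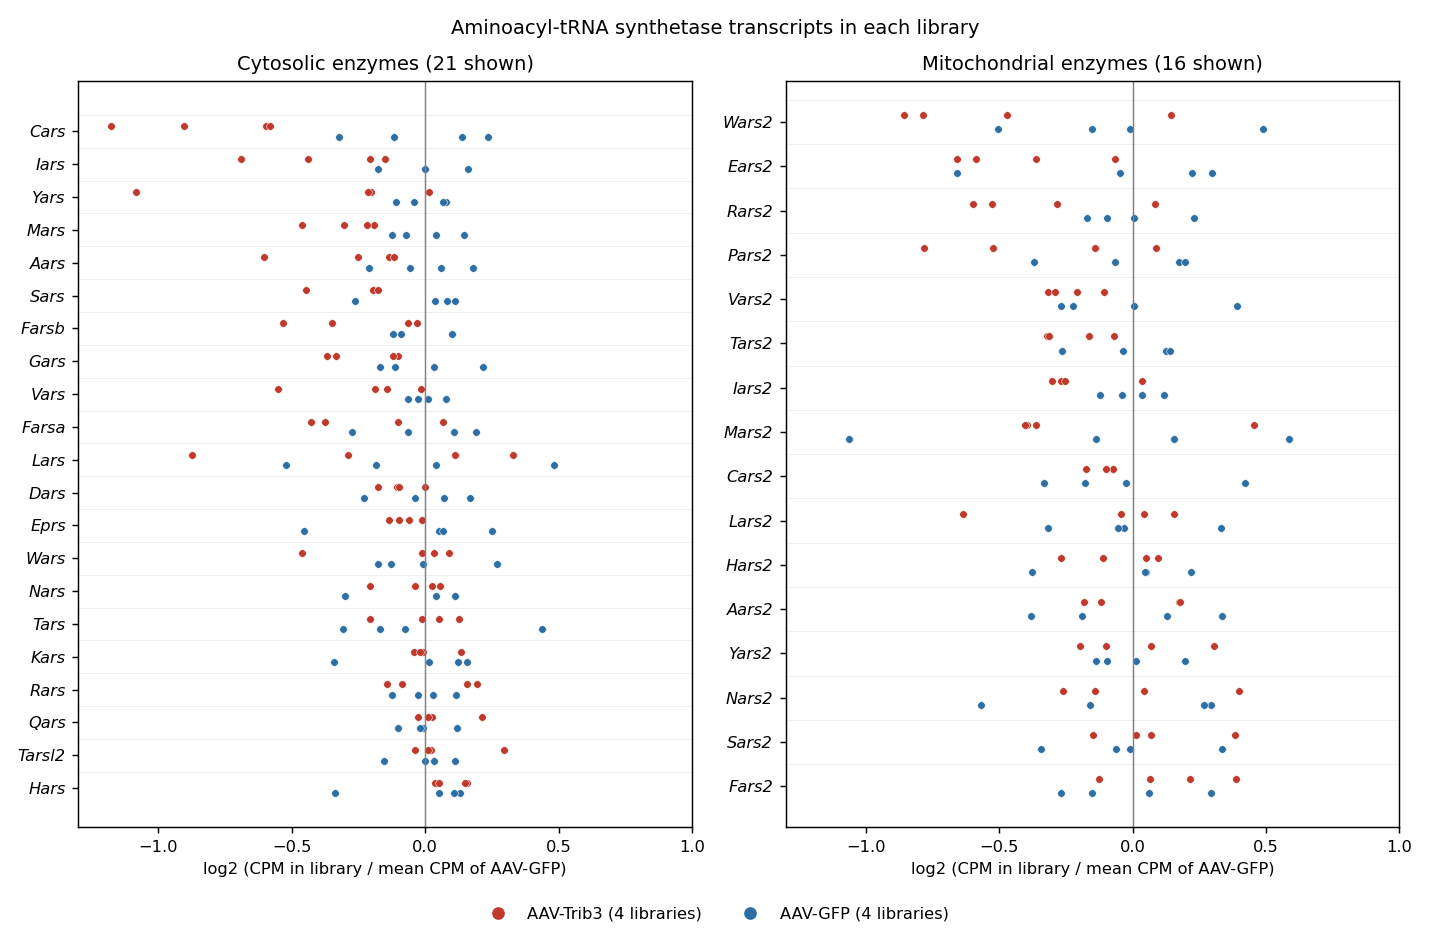
Each library's level of the 37 members shown as the log2 of its TMM-scaled CPM over the mean CPM of AAV-GFP, with AAV-Trib3 libraries (upper row of points for each gene) and AAV-GFP libraries (lower row). Cars and Mars are the members without overlap between the groups; in the other members shown the points of the groups overlap.

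In the mitochondrial set the groups overlapped in all 17 members, and no member had an unadjusted p under 0.05 in edgeR. Ears2, the glutamyl-tRNA synthetase of mitochondria, had 5.90, 7.25, 8.91 and 6.21 CPM in AAV-Trib3, against 10.9, 9.03, 11.5 and 5.91 CPM in AAV-GFP. Its AAV-GFP replicate 4 was as low as the lowest AAV-Trib3 library, and the log2 difference was −0.40 ± 0.23 (SE). Ears2 overlaps Ubfd1 by 89 bases on the opposite strand, and Ubfd1 averaged 436.2 counts a library against 110.1 for Ears2. Rars2 for arginine had 9.19, 7.40, 7.77 and 11.9 CPM in AAV-Trib3, against 10.5, 9.93, 13.1 and 11.2 CPM in AAV-GFP. The log2 difference of Rars2 was −0.30 ± 0.18, and −0.46 without AAV-Trib3 replicate 4, the highest of its group. Tars2 for threonine had 15.3, 15.4, 18.2 and 17.1 CPM in AAV-Trib3, against 20.9, 21.1, 15.9 and 18.7 CPM in AAV-GFP (−0.21 ± 0.14).

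Iars2, the mitochondrial enzyme with the most counts, had 55.2, 55.9, 68.2 and 53.9 CPM in AAV-Trib3, against 68.2, 72.2, 64.6 and 61.1 CPM in AAV-GFP. AAV-Trib3 replicate 3 lay among the AAV-GFP libraries while the other 3 lay below them all, and the log2 difference was −0.19 ± 0.13. Iars2 shares 2034 bases with Rab3gap2 on the opposite strand, which averaged 271.5 counts a library against 849.8. Wars2 had 2.74, 2.20, 4.19 and 2.09 CPM in AAV-Trib3, against 3.77, 5.32, 2.67 and 3.41 CPM in AAV-GFP. At this low level its log2 difference of −0.43 ± 0.31 moved between −0.68 without AAV-Trib3 replicate 3 and −0.22 without AAV-GFP replicate 2. Vars2 had 16.4, 15.2, 17.6 and 15.5 CPM in AAV-Trib3, against 15.7, 24.9, 16.2 and 19.0 CPM in AAV-GFP, and its difference of −0.23 ± 0.16 was −0.07 without AAV-GFP replicate 2.

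Fars2 had the highest positive difference in the family, 0.15 ± 0.17 on the log2 scale. It had 17.4, 22.0, 24.8 and 19.8 CPM in AAV-Trib3 and 23.3, 17.1, 15.7 and 19.8 CPM in AAV-GFP, with full overlap, and the difference was 0.06 with AAV-Trib3 replicate 3 left out and 0.26 with AAV-GFP replicate 1 left out. Pars2, the lowest mitochondrial member in FPKM, had 1.34, 0.732, 1.14 and 0.877 CPM in AAV-Trib3 and 1.42, 1.20, 1.44 and 0.975 CPM in AAV-GFP. That level rests on 10 to 22 counts a library, and its log2 difference of −0.29 ± 0.34 lay between −0.45 (AAV-Trib3 replicate 1 left out) and −0.17 (AAV-Trib3 replicate 2 left out). The remaining 8 mitochondrial members ranged from −0.12 ± 0.36 (Mars2) to 0.10 ± 0.20 (Sars2), and both ends changed sign in single fits, Mars2 to 0.15 with AAV-GFP replicate 3 left out and Sars2 to −0.013 with AAV-Trib3 replicate 3 left out.

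Summed over the set, cytosolic transcripts came to 969, 937.5, 838 and 1012 CPM in AAV-Trib3 replicates 1 to 4, against 1075, 909, 1144 and 1023 CPM in AAV-GFP. Mitochondrial transcripts summed to 211, 203, 253 and 227 CPM in AAV-Trib3, against 254, 261, 227 and 229 CPM in AAV-GFP. The groups overlapped in both sums. The sets did not move together from library to library. AAV-Trib3 replicate 3 had the lowest cytosolic level of all libraries (8 of 21 members had their minimum there) but the highest mitochondrial level of its group. AAV-GFP replicate 2 likewise held the minimum of 8 of 21 cytosolic members and the maximum of 7 of 17 mitochondrial members. AAV-GFP replicate 3 held the maximum of 9 of 21 cytosolic members, and among the 17 mitochondrial members the maximum of 4 and the minimum of 3.

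The median deviation of a set from its mean over all libraries, cytosolic minus mitochondrial, was 0.11, 0.14, −0.31 and 0.002 in AAV-Trib3 replicates 1 to 4, against −0.07, −0.26, 0.27 and 0.07 in AAV-GFP replicates 1 to 4 (log2). Each group thus spread over more than 0.4, while the medians of the sets differed between groups by 0.01. The 2 libraries with the most negative values, AAV-Trib3 replicate 3 and AAV-GFP replicate 2, also had the highest summed hepatocyte markers of their groups, 111600 and 142200 CPM, against 69970 to 93950 CPM in the other 6 libraries. These sums were mostly Alb (84200 and 107500 CPM). Alb, Apoa1, Ttr and Serpina1c were each highest of their group there. Hnf4a was lowest there, at 565.9 and 554.4 CPM, against 645.3 to 839.9 CPM in the other 6 libraries. Fgb and Cps1 did not go the same way in both. The share of mitochondrially encoded counts was 16.6% in AAV-Trib3 replicate 3 and 32.0% in AAV-GFP replicate 2, so it was high in one of them. The part of these markers in the pattern was not tested.

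**Figure D4:**
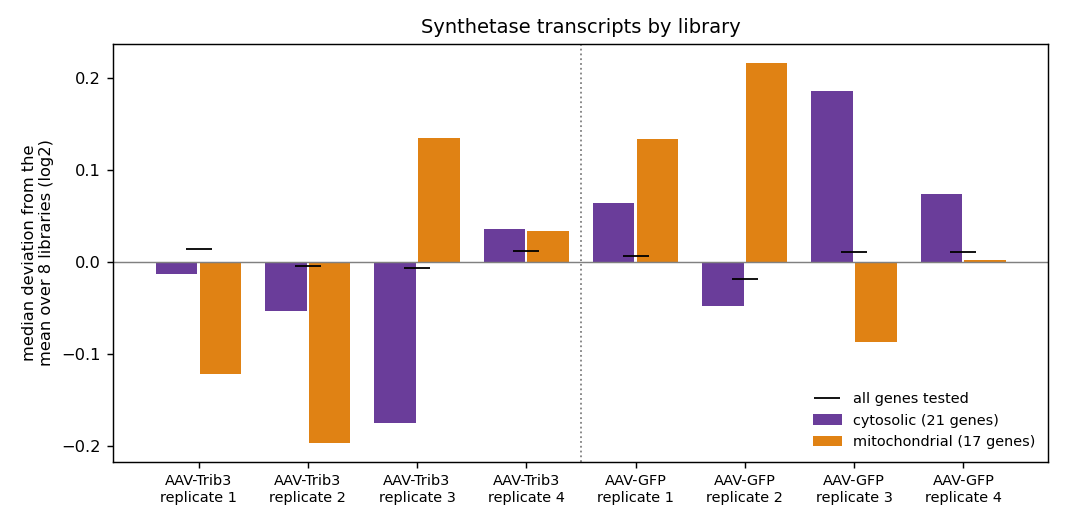
Median deviation of the 21 cytosolic and 17 mitochondrial members from each gene's mean over the 8 libraries (log2 of TMM-scaled CPM plus 0.5), by library, with AAV-Trib3 left of the dotted line and AAV-GFP right of it. Short black lines mark all genes tested, which stay within 0.02 of 0; the cytosolic and mitochondrial bars point opposite ways in AAV-Trib3 replicate 3 and in AAV-GFP replicates 2 and 3.

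With both of these libraries left out, 16 of 21 cytosolic members (median −0.14) and 11 of 17 mitochondrial members (median −0.11) had a log2 difference below 0. Cars then had a log2 difference of −0.72 and an edgeR adjusted p of 0.872.

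Of the genes that work beside the synthetases, 17 were tested and 0 were called, as were 0 of all 11036 genes tested. Among these 17 genes, 7 had a log2 difference below 0, against 52.1% of all genes tested. Their median was 0.01, against −0.01 over all genes tested. Gatb, Gatc and Qrsl1 form the amidotransferase that makes glutaminyl-tRNA in mitochondria, which have no glutaminyl-tRNA synthetase of their own. They had log2 differences of −0.02 ± 0.14, 0.01 ± 0.18 and 0.28 ± 0.28 (SE). The kinase gene Eif2ak4 (GCN2), which senses uncharged tRNA, had 6.11 ± 2.03 CPM in AAV-Trib3 libraries, against 7.16 ± 0.42 CPM in AAV-GFP libraries (SD, n = 4 each). Atf4 itself had 69.3 ± 8.9 CPM in AAV-Trib3 and 68.2 ± 8.9 CPM in AAV-GFP libraries. Only Sepsecs, which makes selenocysteinyl-tRNA, had an unadjusted p under 0.05 in edgeR. Of all genes tested, 3.14% were under the same unadjusted cut-off. Sepsecs averaged 59.6 ± 3.6 CPM in AAV-Trib3 libraries, against 34.6 ± 15.2 CPM in AAV-GFP libraries. Its log2 difference was 0.78 ± 0.26. The groups overlapped through AAV-GFP replicate 4, at 56.14 CPM, against 54.55 to 63.15 CPM in AAV-Trib3. The other AAV-GFP libraries had 22.15 to 33.71 CPM.

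Of 25 other known targets of ATF4, 17 were expressed highly enough to be tested, 0 were called, and 12 had a log2 difference below 0, with a median of −0.12. Over all genes tested, 0 were called and 52.1% were below 0. The median standard error of these targets was 0.38, wider than the 0.14 of the cytosolic synthetases. The most negative difference was that of Atf3 (−1.47 ± 0.78, log2, SE), whose groups overlapped. It rests on AAV-GFP replicates 1 and 4, at 7.62 and 12.56 CPM. AAV-GFP replicates 2 and 3 had 1.104 and 1.876 CPM and the AAV-Trib3 libraries 0.8096 to 4.833 CPM. Asns, the asparagine synthetase gene, had 2.36 ± 1.30 CPM in AAV-Trib3 libraries, against 5.50 ± 4.07 CPM in AAV-GFP libraries (SD, n = 4 each). Chac1, a glutathione-degrading enzyme, had 3.45 ± 1.67 CPM in AAV-Trib3 and 5.13 ± 1.92 CPM in AAV-GFP libraries. Shmt2, the mitochondrial serine hydroxymethyltransferase, had 148 ± 12 CPM in AAV-Trib3 and 153 ± 38 CPM in AAV-GFP libraries. The amino acid transporter subunit Slc3a2 had 24.2 ± 3.1 CPM in AAV-Trib3, against 24.4 ± 5.1 CPM in AAV-GFP. Among the 5 targets with a difference above 0 were Ddit4, an inhibitor of mTORC1 signalling (1.28 ± 0.76; log2, SE), the glutamine transporter Slc1a5 (0.41 ± 0.56) and Cth, the cystathionine gamma-lyase that yields cysteine (0.32 ± 0.19). The difference of Ddit4 rests on AAV-Trib3 replicate 3, at 63.29 CPM. The other AAV-Trib3 libraries had 3.515 to 12.9 CPM and the AAV-GFP libraries 4.414 to 10.89 CPM. Cth had 307 ± 70 CPM in AAV-Trib3 and 246 ± 34 CPM in AAV-GFP libraries (SD, n = 4 each).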

How the data were processed

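The deposited table holds, per the file headers, whole-number gene counts and FPKM for 8 libraries, 4 AAV-Trib3 and 4 AAV-GFP. Columns were matched to samples by the code in each title. Per the submitters' processing notes, reads were trimmed with Trimmomatic and the build was mm10; for aligner, counting program, strand setting and annotation release, the sources used here give nothing. The authors' FPKM followed their counts and library totals, but with gene lengths that are mostly not those of one transcript, so per-length levels were also computed from counts and GENCODE M21 lengths (mm10). Counts were filtered with filterByExpr (11036 genes kept), scaled with TMM and tested with edgeR's quasi-likelihood test (robust, no covariate, threshold 0.05). Standard errors come from the fold change and its F statistic. Levels are TMM-scaled CPM with SD. The fit was also run on simulated counts with known changes, but the share recovered is not given here. Libraries of a group differed far beyond sampling noise. Values of every library are given for the 8 cytosolic and 6 mitochondrial members with the smallest unadjusted p, the highest and lowest of each set in FPKM, and Cars2. Members and lists were chosen with earlier results of these data known; the grouping by multisynthetase complex, the promoter motifs and the GENCODE lengths were added after values were seen. Promoter sequences are RefSeq's (GRCm38.p6). Programs: edgeR 4.0.16, DESeq2 1.42.0 and limma 3.58.1 under R 4.3.3; Python 3.11.15. Single values of 1 member and 1 promoter stretch are not reported here; counts and medians include them.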

Additional observations from a re-analysis of the deposited data

Results flagged for a closer look

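In 76 groups of 4 libraries (38 members in each group), 3 held a library far from the other 3. About 1 in 20 such groups would be picked out by chance, so 3 of 76 is no more than chance would give. Sars had 28.9 CPM in AAV-Trib3 replicate 3, below the 34.4 to 35.0 CPM of the other AAV-Trib3 libraries. Iars2 had 68.2 CPM in AAV-Trib3 replicate 3, above the 53.9 to 55.9 CPM of the others. Mars2 had 5.94 CPM (88 counts) in AAV-Trib3 replicate 4, above the 3.28 to 3.37 CPM of the others. Sars is cytosolic and Iars2 mitochondrial, and in AAV-Trib3 replicate 3 they lay on opposite sides of their group.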

How the results depend on the processing

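The number of genes past the threshold was 0 in edgeR (346 at an unadjusted p under 0.05), 17 with DESeq2's Wald test, 7 with that test without independent filtering (chosen after seeing the data) and 0 to 3 in edgeR with 1 library left out (3 without AAV-GFP replicate 3). The number of members past it was 0 in edgeR and limma-voom and 1 with DESeq2, lost without independent filtering. With 1 library left out, the cytosolic median ran from −0.18 to −0.07 and 12 to 18 of 21 members were below 0; the mitochondrial median ran from −0.19 to −0.06 with 9 to 16 of 17 below 0. Their difference ran from −0.11 to 0.059. In all 19 settings, 20 of 38 members kept their sign, Cars among them; Pars2 kept its sign in the 18 settings in which it was tested, and was not tested under the stricter filter. With 1 library left out, Cars2 ran from −0.195 to 0.071 (above 0 without AAV-GFP replicate 2) and Nars from −0.12 to 0.015 (above 0 without AAV-Trib3 replicate 3 or, at 0.0023, AAV-GFP replicate 3). Cars2 was 0.064 without both AAV-Trib3 replicate 3 and AAV-GFP replicate 2, a setting chosen after seeing the data. The cause was not tested. Scaling by library size alone gave a median of 0.04 over all genes, with 42.2% below 0 against 52.1%, and moved the cytosolic median to −0.09 and the mitochondrial one to −0.04. With the replicate number as a block, 0 genes were called (225 at an unadjusted p under 0.05), 15 of 21 cytosolic members were below 0 (median −0.13), and the mitochondrial median was −0.09. Same-numbered libraries did not deviate together (correlations −0.28 to −0.05), and 0 of 4 numbers correlated best with their own. These values gave no sign of pairing by number, but they cannot show how the libraries were prepared. Members at about 10 counts, such as Pars2, allow no fine comparison.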
